A study of Caenorhabditis elegans with 3 samples.

Results

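The dosage compensation complex of Caenorhabditis elegans is described here through the genes that encode it: sdc-1, sdc-2, sdc-3, dpy-21, dpy-26, dpy-27, dpy-28, dpy-30, mix-1 and capg-1. These 10 genes were listed by name and known membership, and no threshold on a measured value was part of the rule. Probes annotated with exactly 1 of these symbols were taken, probes of the same gene were averaged, and genes with a value on all 3 arrays were kept. This gave 9 genes, measured by 10 probes, out of 19264 features (genes, or probes without a name) that have values on all 3 arrays. The remaining gene, dpy-21, which encodes a histone demethylase of the complex, was not matched to a probe and was not analysed here.

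RNA of late young adult hermaphrodites from preparations 1, 2 and 3 was in channel 2, and RNA of a wild-type mixed reference was in channel 1 of each array. The labels name no allele or treatment for the adults, and do not give the stages mixed into the reference, the ages in hours or whether separate cultures were grown. The p-values therefore rest on the spread among these 3 preparations, which the test pools in part over all features. That spread may be technical. Every value is a log2 ratio, taken as likely adult over reference from the order of the channels in the labels; with the other direction, every "higher" would read "lower". Whole animals were used, so fewer cells of a type and less RNA per cell cannot be told apart, and a ratio compares shares of the RNA, not amounts per cell.

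In this nematode the hermaphrodite has a pair of X chromosomes and the male a single one. In hermaphrodites the dosage compensation complex binds along both X chromosomes in somatic cells and reduces their transcription, so that X-linked genes reach about the same output in both sexes. At its core is a condensin, a ring-shaped complex that also shapes chromosomes for division. The same worm makes condensin I and condensin II for mitosis and meiosis, and several subunits serve both these condensins and the dosage compensation condensin.

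The subunit genes that dosage compensation shares with condensin I, capg-1, dpy-26, dpy-28 and mix-1, were higher in the adult by 1.82-fold to 2.31-fold. The X recognition gene sdc-3 was higher as well, and dpy-30, dpy-27, sdc-1 and sdc-2 did not pass the threshold. The mean log2 ratios reached from 1.21 for capg-1 to −0.38 for sdc-2. In all, 5 of 9 genes were higher and 0 lower by limma's moderated test of the mean ratio against 0, with a Benjamini-Hochberg adjusted p under 0.05. Across all genes and unnamed probes 38.4% passed, 19.6% higher and 18.8% lower. The median over the 9 genes was 0.55, with array medians of 0.70, 0.58 and 0.43, against a median of 0.04 over all features. On all 3 arrays 7 of the 9 genes lay above 0, as did 33.7% of all features.

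**Figure D1:**
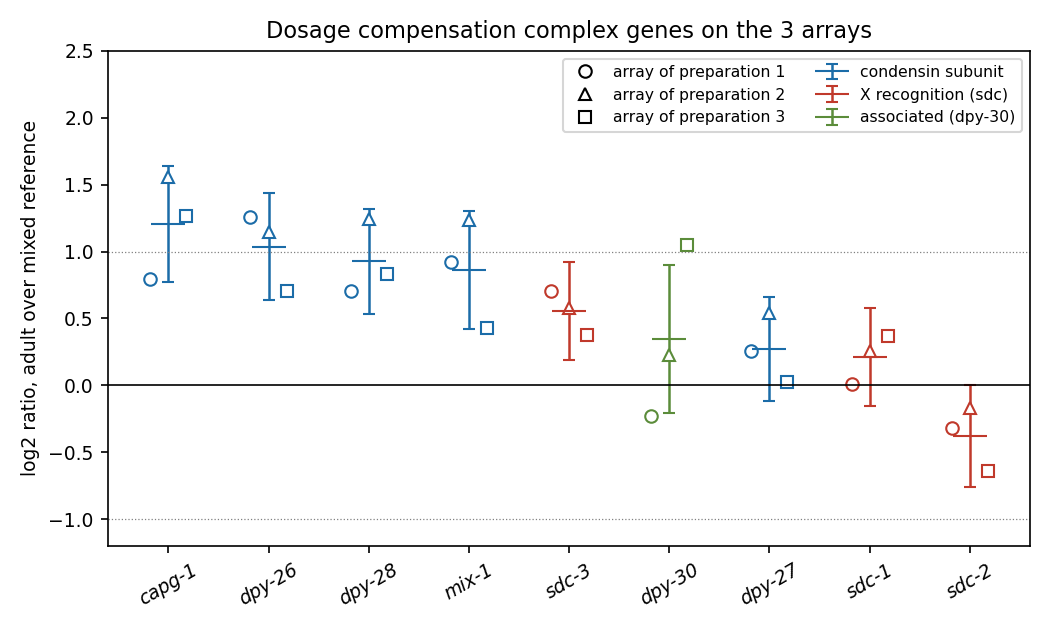
Log2 ratios of the 9 measured genes of the complex, adult over mixed reference, in order of their mean. Open symbols are the 3 arrays, horizontal marks are means and bars are moderated 95% confidence intervals; dotted lines mark 2-fold. The bars of capg-1, dpy-26, dpy-28, mix-1 and sdc-3 lie above 0, and those of dpy-30, dpy-27, sdc-1 and sdc-2 include it.

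Of the condensin subunits of the complex, capg-1 had the highest mean, though not the highest value on every array. It encodes the CAP-G type subunit that the dosage compensation condensin shares with condensin I. Its log2 ratios were 0.79, 1.56 and 1.27 on the arrays of preparations 1, 2 and 3. All 3 lay above 0, with the first array lowest. The mean was 1.21 ± 0.39 (SD, n = 3), or 2.31-fold higher in the adult (limma adjusted p = 0.00153; 95% confidence interval 0.77 to 1.64), above 94.8% of all features.

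The kleisin gene dpy-26, whose product closes the ring, had log2 ratios of 1.26, 1.14 and 0.70. Here the third array was lowest, whereas for capg-1 it was the first. Its mean was 1.04 ± 0.29 (SD, n = 3), 2.05-fold higher in the adult (limma adjusted p = 0.00213). The HEAT-repeat subunit gene dpy-28, homologous to CAP-D type subunits, had 0.70, 1.24 and 0.83. All of its values lay above 0, and the second array was highest. Its mean was 0.93 ± 0.28 (SD, n = 3), 1.90-fold higher (limma adjusted p = 0.00342).

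The gene mix-1 encodes the SMC subunit that is common to all 3 condensins of the worm, and it was the gene of the complex with more than 1 probe. Its log2 ratios, averaged over 2 probes, were 0.92, 1.24 and 0.43, with the third array lowest. The mean was 0.86 ± 0.41 (SD, n = 3), 1.82-fold higher in the adult (limma adjusted p = 0.00807). One probe gave 1.18, 1.17 and 0.43 and the other 0.66, 1.30 and 0.42. The probes differed mainly on the first array, and their means of 0.93 and 0.79 lay closer together than the arrays did.

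The gene dpy-27 encodes the other SMC subunit, which takes the place of SMC-4 in the dosage compensation condensin and belongs to no other condensin. Its log2 ratios were 0.25, 0.54 and 0.02, all above 0, with the third array next to 0. The mean was 0.27 ± 0.26 (SD, n = 3) and did not pass the threshold (limma adjusted p = 0.243). Its 95% confidence interval of −0.11 to 0.66 lay below a 2-fold rise. The highest value of dpy-27 on any array, 0.54, exceeded the lowest value of mix-1, 0.43, but on each single array dpy-27 lay below each of the other 4 condensin genes.

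Of the genes of X recognition, sdc-3 was higher and sdc-1 and sdc-2 were not called. SDC-2 is the hermaphrodite-specific protein that starts the assembly of the complex on X; SDC-3, a zinc finger protein, acts with it, and SDC-1 is another zinc finger protein of the complex. The 3 proteins also repress her-1, a gene of male fate. The log2 ratios of sdc-3 were 0.70, 0.58 and 0.37, all above 0 and close together. Its mean was 0.55 ± 0.17 (SD, n = 3), 1.47-fold higher in the adult (limma adjusted p = 0.0250). The call was lost without preparation 2 (limma adjusted p = 0.124) and without preparation 3 (0.0652), although the mean stayed between 0.48 and 0.64 under every alternative tried.

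The gene sdc-1 had log2 ratios of 0.01, 0.25 and 0.37, with the first array at 0. Its mean was 0.21 ± 0.18 (SD, n = 3), short of the threshold (limma adjusted p = 0.341; 95% confidence interval −0.16 to 0.58). The gene sdc-2 was the one measured gene of the complex below 0 on all 3 arrays, at −0.32, −0.17 and −0.64. Its mean was −0.38 ± 0.24 (SD, n = 3), and the confidence interval of −0.76 to 0.01 just included 0 (limma adjusted p = 0.111). A 2-fold difference in either direction lies outside the intervals of both genes.

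The gene dpy-30 encodes a small protein that is shared with COMPASS, the complex that methylates histone H3 at active promoters. Its arrays disagreed, with log2 ratios of −0.23, 0.23 and 1.05. They lay below 0 on the first array and about 2-fold above it on the third. The mean was 0.35 ± 0.65 (SD, n = 3) and did not pass (limma adjusted p = 0.293). This SD was larger than that of 94.2% of all features, and the mean rests on the third array: without preparation 3 it was −0.0017. When the fit weighted the arrays by their estimated quality, which gave the first array a weight of 0.387 against 1.62 and 1.60 for the others, dpy-30 passed at a mean of 0.54 (limma adjusted p = 0.0475). The weighted fit called 48.9% of all features, against 38.4% in the main fit.

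The order of the genes was only partly the same from array to array. Of 36 pairs among the 9 genes, 23 had the same order on all 3 arrays. Of the 8 pairs of neighbours in the order of means, the same order on every array was found for 2, mix-1 above sdc-3 and sdc-1 above sdc-2. The 4 subunits capg-1, dpy-26, dpy-28 and mix-1 could not be ranked, apart from capg-1 above dpy-28, by 0.28 ± 0.18 (SD of the within-array difference, n = 3). The gene dpy-27 lay above sdc-2 by 0.65 ± 0.07, the steadiest difference of dpy-27 to any other gene of the complex. With 3 arrays an exact sign-flip permutation test of such a difference cannot give a p below 0.25, so these are descriptions.

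The SMC-4 class gene that dpy-27 stands in for was set beside it on the same arrays. The gene smc-4, which encodes that subunit of condensin I and II, was higher in the adult at 0.99 ± 0.25 (SD, n = 3; limma adjusted p = 0.00222). The probes differ, and each ratio is against a gene's own level in the reference, so RNA amounts of the genes were not compared. The log2 ratio of dpy-27 minus that of smc-4 was −0.48, −0.69 and −0.99 on the 3 arrays. Thus dpy-27 lay below smc-4 on each of them, by 0.72 on average, a mean difference of −0.72 ± 0.25 (SD, n = 3; exact two-sided sign-flip permutation p = 0.25, the smallest this design can give). Against kle-2, the kleisin gene of condensin II, the difference of dpy-27 was −0.85 ± 0.11, again below on all 3 arrays. Of the subunit genes shared with condensin I, dpy-28, mix-1 and dpy-26 lay on both sides of smc-4, with mean differences of −0.07 ± 0.10, −0.13 ± 0.40 and 0.04 ± 0.43. The gene capg-1 lay above smc-4 on all 3 arrays, by 0.21 ± 0.14.

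The remaining condensin genes were higher in the adult, as the shared subunits were, against 19.6% higher over all features. All 3 measured ones passed, smc-4 as given, kle-2 at 1.12 ± 0.18 (limma adjusted p = 0.00102) and capg-2, the CAP-G type subunit of condensin II, at 0.83 ± 0.06 (limma adjusted p = 0.00332; SD, n = 3 for each). Another listed gene, hcp-6, was not matched to a probe. Their median of 0.99 lay next to the median of 0.98 over capg-1, dpy-26, dpy-28 and mix-1. The median over the 3 sdc genes was 0.21.

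Genes of the related cohesin ring and of the SMC-5 and SMC-6 complex were higher too. Of 13 measured, 12 were higher and 0 lower, against 19.6% higher and 18.8% lower over all features. Their median log2 ratio was 1.11, and they were led by the mitotic cohesin kleisin gene scc-1 at 1.87 ± 0.26, smc-6 at 1.59 ± 0.39 and the meiotic kleisin gene rec-8 at 1.57 ± 0.13 (SD, n = 3). The 1 that was not called, named after its value was seen, was the X-linked kleisin gene coh-1 at 0.02 ± 0.17. Of 15 genes of mitotic chromosomes and the spindle, 12 were higher and 0 lower (median 1.29). The microtubule depolymerase gene klp-7 at 2.30 ± 0.74 and the kinetochore genes hcp-4 at 2.06 ± 0.16 and hcp-1 at 2.01 ± 0.32 led them.

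Germline genes, which whole adults and a mixed reference may hold in unlike shares, were higher in every case, against 19.6% of all features. Of 17 measured, 17 were higher, with array medians of 1.33, 1.95 and 1.96 and a median of 1.66; glh-1, glh-2 and glh-4, germline helicases, led at 2.89, 2.75 and 2.49. Every one of the 9 genes of the complex except capg-1, dpy-26 and dpy-28 had a mean below the lowest of the germline genes, gld-2 at 0.88 ± 0.25, which was named after its value was seen. The part of the germline share in the ratios of the complex was not tested.

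Partners of dpy-30 in COMPASS were mostly higher. Of 10 measured genes, 7 were higher and 0 lower (median 0.83), against 19.6% higher and 18.8% lower over all features. The methyltransferase genes set-2 and set-16 lay at 1.37 ± 0.44 and 1.25 ± 0.11, and the WD-repeat gene wdr-5.1 at 0.94 ± 0.23 (SD, n = 3). Named after its value was seen, ash-2 had log2 ratios of 0.22, 0.97 and 1.51, with the first array lowest and the third highest, as for dpy-30. Its mean was 0.90 ± 0.65 and passed (limma adjusted p = 0.0180). The same order of the arrays held for rbbp-5, cfp-1 and utx-1, but not for set-2, set-16, hcf-1, wdr-5.1, wdr-5.2 or wdr-5.3.

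The methyltransferase genes that put methyl groups on the histone H4 lysine from which DPY-21 removes them were not called. The gene set-1, for the first methyl group, had a mean log2 ratio of 0.24 ± 0.08, and set-4, for the further ones, 0.35 ± 0.14 (SD, n = 3; limma adjusted p = 0.255 and 0.113). Both lay above 0 on all 3 arrays. Of 10 genes of the MES proteins and related chromatin, some of which silence X in the germline, 8 were higher and 0 lower (median 1.07). The shares over all features were 19.6% higher and 18.8% lower. They were led by the histone methyltransferase genes set-25 at 1.54 ± 0.33 and mes-4 at 1.38 ± 0.43 and the chromodomain gene mrg-1 at 1.34 ± 0.38.

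Genes upstream of the complex, which count X chromosomes against autosomes in the early embryo, were mostly not called. A gene that was not called on 3 arrays may still differ. Of 6 measured, 1 was higher and 0 lower, a share of 16.7% against 19.6% higher over all features. The switch gene xol-1, which is active in males and blocks sdc-2, lay at −0.01 ± 0.25. The X-linked signal genes sex-1, fox-1 and ceh-39 lay at 0.15 ± 0.09, −0.22 ± 0.01 and 0.12 ± 0.58. The autosomal signal gene sea-1 was higher at 0.62 ± 0.15 (limma adjusted p = 0.0149), a call that was lost without preparation 2 and without preparation 3, while 2 of the 6 genes were called without preparation 1, and sea-2 lay at 0.13 ± 0.22 (SD, n = 3 for each).

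In the sex determination pathway that the sdc genes also control, 3 of 7 measured genes were higher (42.9%) and 0 lower. Over all features 19.6% were higher and 18.8% lower. These were fem-2 at 1.12 ± 0.25, fem-3 at 1.05 ± 0.15 and fem-1 at 0.55 ± 0.11, genes of male development and of spermatogenesis. The direct target her-1, named after its value was seen, lay at −0.15 ± 0.21 (SD, n = 3; limma adjusted p = 0.512).

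**Figure D2:**
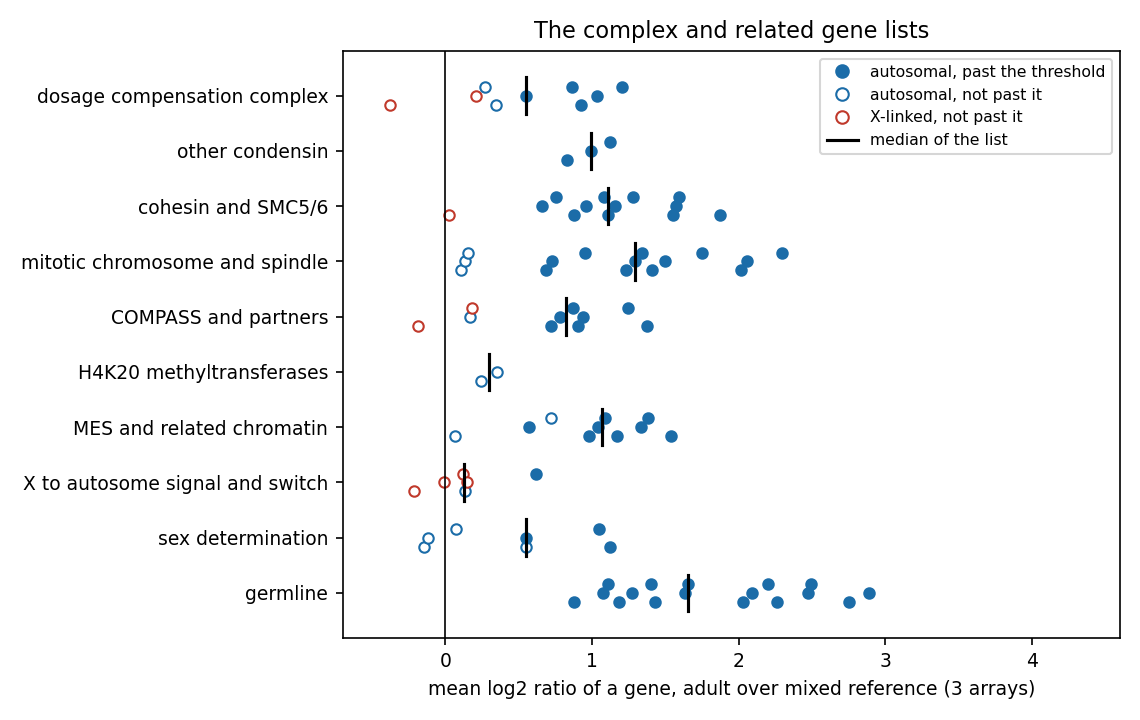
Mean log2 ratio over 3 arrays for each measured gene of the complex and of related lists; filled points passed the limma threshold, open ones did not, red points are X-linked and black bars are list medians. The complex has its median at 0.55, between the upstream X signal genes at 0.13 and the other condensin genes at 0.99, and all red points are open. Over all X-linked genes 5.50% were higher.

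The complex acts on X, and 2 of its own genes, sdc-1 and sdc-2, are X-linked, by the gene table of the assembly WBcel235. The chromosome was known for 15022 measured genes. Over 2253 X-linked genes the median log2 ratio was −0.27, against 0.08 over 12769 autosomal genes. Of the X-linked genes 124 (5.50%) were higher in the adult and 704 (31.2%) lower; of the autosomal genes 2883 (22.6%) were higher and 2382 (18.7%) lower. X was lower than the autosomes on each array, with differences of medians of −0.46, −0.30 and −0.28. The difference over the mean ratios was −0.36 ± 0.10 (SD over 3 arrays; exact two-sided sign-flip permutation p = 0.25, the smallest possible). Among the autosomes the medians ran from −0.06 on chromosome V to 0.23 on chromosome I, all above X. The part of the complex in the X values was not tested.

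Set against their own chromosomes, the genes of the complex ranked differently than over all features. The gene sdc-1 lay above 88.4% of X-linked genes, although only above 64.1% of all features. The gene sdc-2 lay within the middle of X, above 40.9% of X-linked genes. On chromosome III, dpy-28 lay above 83.7% of the genes and dpy-27 above 53.6%, although both are on the same chromosome. The remaining genes lay high in their chromosomes: capg-1 above 92.2% on I, dpy-26 above 91.4% on IV, sdc-3 above 88.0% and dpy-30 above 82.9% on V, and mix-1 above 86.8% on II.

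**Figure D3:**
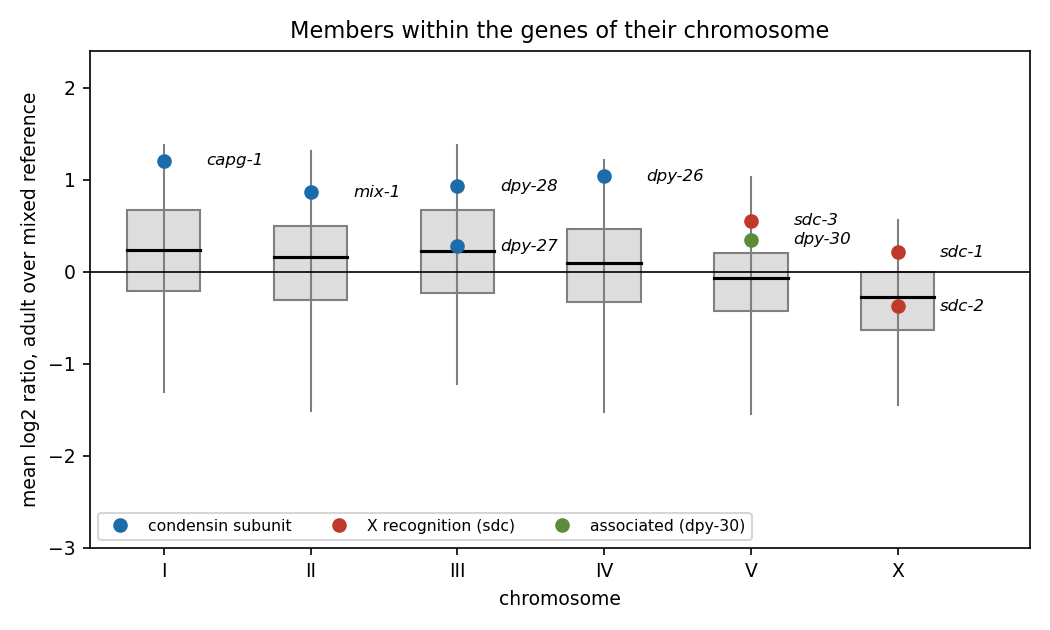
Mean log2 ratios of the 9 genes of the complex (points) within all measured genes of their chromosome; boxes span the quartiles with the median as a bar, and lines reach from the 5th to the 95th percentile. X has the lowest median, −0.27, and sdc-1 lies above its box while sdc-2 lies inside it.

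The genes of the complex and of the lists around it were also counted by chromosome. Without the germline, adult stage, male and sperm marker lists, 0 of 9 X-linked genes and 51 of 66 autosomal genes were higher, and 0 of either were lower. Over all X-linked genes 5.50% were higher and 31.2% lower, and over all autosomal genes 22.6% and 18.7%. The 0 of 9 higher therefore lies near the share of all X-linked genes. The X-linked genes were sdc-1, sdc-2, coh-1, wdr-5.2, utx-1, xol-1, sex-1, fox-1 and ceh-39, with means from −0.38 to 0.21. The marker lists left out do hold X-linked genes that were called: col-19 at 2.75 ± 0.50 and vit-2 at 1.28 ± 0.18 were higher, and mab-7 at −0.78 ± 0.09 was lower (SD, n = 3). This grouping was made after the values were seen and has no test.

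Most genes of the complex lay lower on the arrays of preparations 1 and 3 than on that of preparation 2, as did several related lists. On the array of preparation 3, 7 of 9 lay lower than on that of preparation 2, and the median difference over all 9 genes was −0.41. Of all features 48.0% lay lower, with a median difference of 0.01. On the array of preparation 1 also, 7 of 9 lay lower than on that of preparation 2, against 45.5% of all features. The median difference over all 9 genes was −0.29. All 5 condensin subunits of the complex, all 3 other condensin genes, 12 of 13 cohesin and related genes and 12 of 15 mitotic genes were lower on the third array than on the second. Fewer were lower there among COMPASS (4 of 10), germline (7 of 17), MES and related (5 of 10), X signal (2 of 6) and sex determination genes (2 of 7). On the first array 13 of 17 germline, 8 of 10 MES and related, 7 of 10 COMPASS and 6 of 6 X signal genes were lower than on the second. So were 10 of 13 cohesin and related and 11 of 15 mitotic genes, but 2 of 7 sex determination genes. The exceptions in the complex on the third array were sdc-1 at 0.12 and dpy-30 at 0.82 above. Each array carries its own date in the labels, so the day of an array cannot be told from its preparation.

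Over the whole series the arrays correlated at r = 0.763 to 0.900 across features, which are not independent replicates, and the median SD of a feature was 0.27. The adult stage was checked on 8 genes, of which 7 were higher and 0 lower, led by the adult collagen col-19 at 2.75 ± 0.50 and the eggshell genes cpg-1 at 2.48 ± 0.20 and cbd-1 at 2.46 ± 0.12. Of 7 genes of male structures 0 were higher and 2 lower, mab-7 (−0.78 ± 0.09) and cwp-4 (−0.81 ± 0.03). Over all features 19.6% were higher and 18.8% lower, and the male counts lie near these shares. Of 9 sperm genes 6 were higher and 1 lower, among them msp-50 at 1.55 ± 0.71, msp-56 at 1.53 ± 0.79 and spe-27 at −1.85 ± 0.46 (SD, n = 3).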

How the data were processed

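The deposited table gives 1 log2 value per probe and array for 20000 probes on 3 arrays. Per the labels, channel 1 held the mixed reference and channel 2 the adult RNA; the background correction, normalization, filters and genome build of the authors are not given in the sources used here. Turned back to ratios with base 2, 99.98% of the deposited log2 values fell on steps of 0.001 (within 0.01 of a step), against 3.35% with the sign turned, so the base is 2; direction rests on the channel order. Array medians were 0.05, 0.01 and 0.02. No spot intensities were used, so faint spots cannot be told from bright ones, and the number of arrays limits the precision.

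The platform annotation gave 15655 probes 1 symbol each, updated by gene identifier to the RefSeq table of WBcel235, which served for names and chromosomes. Probes of a symbol were averaged; 198 probes with several symbols and 4147 unlisted ones were kept unnamed. The test against 0 was limma 3.58.1 in R 4.3.3 on the deposited values (intercept, eBayes, two-sided, Benjamini-Hochberg over 19264 features, threshold 0.05), after the step was tested on simulated data. The reference's own spread does not enter, and a channel effect cannot be told from a difference. The members and lists were chosen with earlier results of these data known, so no list was tested as a set. Named were all members, all genes of the lists of other condensins, histone H4 methyltransferases and X signals, and in each other list the 3 largest called ratios, with any calls of the rarer direction where these were 3 or fewer. Alternatives were each preparation left out, median centring, scaling, array weights, single probes, features on 2 arrays, no moderation, and named genes only.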

Additional observations from a re-analysis of the deposited data

How the results depend on the processing

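The calls of capg-1, dpy-26, dpy-28 and mix-1 held under 9 of 10 alternatives and were lost without moderation, where each gene is tested on its 3 values alone. That setting called 0 of 19264 features (lowest adjusted p 0.0682; at an unadjusted p under 0.05 it had 6188, and limma 8985), so the counts of every list fell to 0; 4 of the 9 genes of the complex had an unadjusted p under 0.05 there, against 5 by limma. The count of higher genes of the complex was 4 to 5 with 1 preparation left out and 6 with array weights, which add dpy-30. Over all features 13.9% to 22.2% were higher with 1 preparation left out and 25.1% with array weights, against 19.6% in the main fit. The mean of dpy-30 reversed to −0.0017 without preparation 3 and reached 0.64 without preparation 1. Among the X signal genes 0 to 2 were higher with 1 preparation left out, and among the male genes 0 to 1. Array weights gave 1 higher histone H4 methyltransferase gene and 1 higher male gene. These counts differed with the preparation left out and with the weights, and the cause was not tested. The X minus autosome difference lay between −0.40 and −0.30 under its 7 alternatives. The genes dpy-27, sdc-1 and sdc-2 were called under none of 10. No paired analysis was possible because the series has 1 group. Without spot intensities, what signal over background limits could not be judged.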
